A study of Mus musculus with 6 samples.

Results

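Imprinted genes are used mainly or only from the copy inherited from the mother or from the father, and 10 of them were chosen by name. H19, Cdkn1c and Grb10 are assigned to the maternal copy, and Igf2, Peg3, Dlk1, Ndn, Mest, Plagl1 and Peg10 to the paternal copy. For some imprinted genes such an assignment holds in certain tissues alone. Of these 10 listed genes, 8 matched a row among the 19613 genes of the table, 2 maternal and 6 paternal. Grb10 and Peg10 matched no row by symbol or synonym and were not analysed here.

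The imprint is a mark of DNA methylation set in the germ line of one parent and kept through the divisions of the embryo, so that the parental copies of a gene behave differently in the same cell. Imprinted genes lie in clusters, and many act on growth of the embryo and placenta, often with the paternally expressed genes promoting growth and the maternally expressed genes restraining it. Several are also strongly used in the developing nervous system. The imprint can be lost in embryonic stem cells in culture.

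The series holds 6 arrays, in a single group, of embryoid bodies, which are floating aggregates grown from embryonic stem cells. The mouse HBG3 stem cells carried HB9-eGFP, a fluorescent label that marks cells using the motor neuron gene Mnx1, and were driven towards spinal motor neurons. After 6 days of differentiation the bodies were kept for 24 h in medium with 5% serum from male carriers of the strain B6CBA-Tg(HDexon1)62Gpb/3J, a model of Huntington's disease with a fragment of the human huntingtin gene, taken at 10 weeks of age and before symptoms. The study used these samples to ask whether an assay trained on serum of an ALS model also responded to serum of another disease. The strain label names the donors of the serum, not the cells. The labels call the fluid plasma, whereas the series title and the methods call it serum, which is the word used here. No control arrays were analysed, so the values describe levels, spread and covariation under this serum and not a response to it. The embryoid bodies hold several cell types, and in such bulk RNA fewer cells of a type and less RNA per cell cannot be told apart. The arrays measured the total RNA of a gene and did not say which parental copy it came from, so the words maternal and paternal below are textbook assignments.

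Replicate numbers 2, 4, 5, 6, 7 and 8 were those of the array titles. Median intensity per array ran from 296 to 311 and Pearson's r between arrays over all genes from 0.991 to 0.997. Replicate 8 had the lowest average r, 0.992, against 0.994 for the next lowest. Of the markers in the table, 7 of 7 motor neuron genes and 8 of 8 neuron genes were above background, against 5 of 12 mesoderm, 4 of 8 endoderm, 3 of 7 pluripotency and 0 of 3 blood genes. All 8 proliferation genes were above background. Whether the arrays had passed the study's screen for outlying arrays is not given. The study classified 6 serum samples of this model, so the SDs can hold differences between sera as well as technical error. The labels do not tie arrays to sera.

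The promoters of Igf2, Plagl1 and Mest are shown because these 3 genes, singled out after their values were seen, followed each other most closely over the arrays. Each line gives the 250 bases that precede a transcription start in RefSeq on the assembly GRCm38.p6, 5′ to 3′ on the strand of the gene, with each CpG, the dinucleotide that carries the methylation of an imprint, in capitals. For Igf2, with 4 windows in the table, and for Mest, with 3, the window with the most CpG was taken, the first of the pair that tied for Mest. The Mest window lies at chr6:30737800-30738049 on the plus strand, that of Plagl1 at chr10:13090582-13090831 on the plus strand and that of Igf2 at chr7:142658805-142659054 on the minus strand. The arrays do not say which start these cells used.
Mest: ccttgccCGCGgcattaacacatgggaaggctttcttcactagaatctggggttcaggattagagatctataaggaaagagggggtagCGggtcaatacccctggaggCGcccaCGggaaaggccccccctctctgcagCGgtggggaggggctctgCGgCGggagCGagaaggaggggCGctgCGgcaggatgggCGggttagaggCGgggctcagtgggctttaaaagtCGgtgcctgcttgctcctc
Plagl1: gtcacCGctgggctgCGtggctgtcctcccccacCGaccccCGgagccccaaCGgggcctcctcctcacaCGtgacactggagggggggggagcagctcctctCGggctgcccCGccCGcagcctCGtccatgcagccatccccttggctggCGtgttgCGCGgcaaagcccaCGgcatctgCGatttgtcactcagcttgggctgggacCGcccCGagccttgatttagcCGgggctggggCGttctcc
Igf2: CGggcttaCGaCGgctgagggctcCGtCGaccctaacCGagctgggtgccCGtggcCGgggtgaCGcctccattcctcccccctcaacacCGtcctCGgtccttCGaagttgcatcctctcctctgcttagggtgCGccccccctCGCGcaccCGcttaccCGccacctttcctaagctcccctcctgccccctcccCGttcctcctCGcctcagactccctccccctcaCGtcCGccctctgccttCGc

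These windows held 14 CpG for Mest, 19 for Plagl1 and 22 for Igf2, against a median of 6 over the 32851 promoter windows of the table. Fewer CpG than that were found in 70.6% of all windows for Mest, 80.3% for Plagl1 and 85.2% for Igf2. For Mest and Igf2 the window with the most CpG was set against windows not picked in this way, which raises its rank. The other windows held 1, 10 and 6 CpG for Igf2 and, beside the tied one, 7 for Mest. Plagl1 had 1 window. The letters TGCCGC, the hexamer that the imprint-keeping protein ZFP57 binds when it is methylated, were searched on both strands. They stood at 2 places in the Mest window, starting at bases 9 and 184 counted from the 5′ end, at 1 place in the Plagl1 window, starting at base 161, and at none in that of Igf2. Of all windows, 8.68% held the hexamer. GGGGCCCC, also searched on both strands, was found among the windows of the listed genes only in that of Peg3, and 0.889% of all windows held it. A match describes the letters and is not a site of binding. The RefSeq table held 13 windows for 7 of the listed genes, Grb10 included. H19, Cdkn1c and Peg10 had none.

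All 8 imprinted genes were measured well above background, which was set at a log2 intensity of 7.47, the 95th percentile of the means of 1032 olfactory receptor genes. Each of the 8 was above it on all 6 arrays. Over all genes, 65.2% passed the same level by their mean. Expressed as rank, the imprinted genes lay high: from 87.2% of all genes below Cdkn1c to 99.4% below Peg3. The 2 maternal genes had mean intensities of 10.23 and 10.74, and the 6 paternal genes spanned 10.28 to 12.54. Probes differ in how brightly they report the same amount of RNA, so these intensities rank signals and not transcript amounts.

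**Figure D1:**
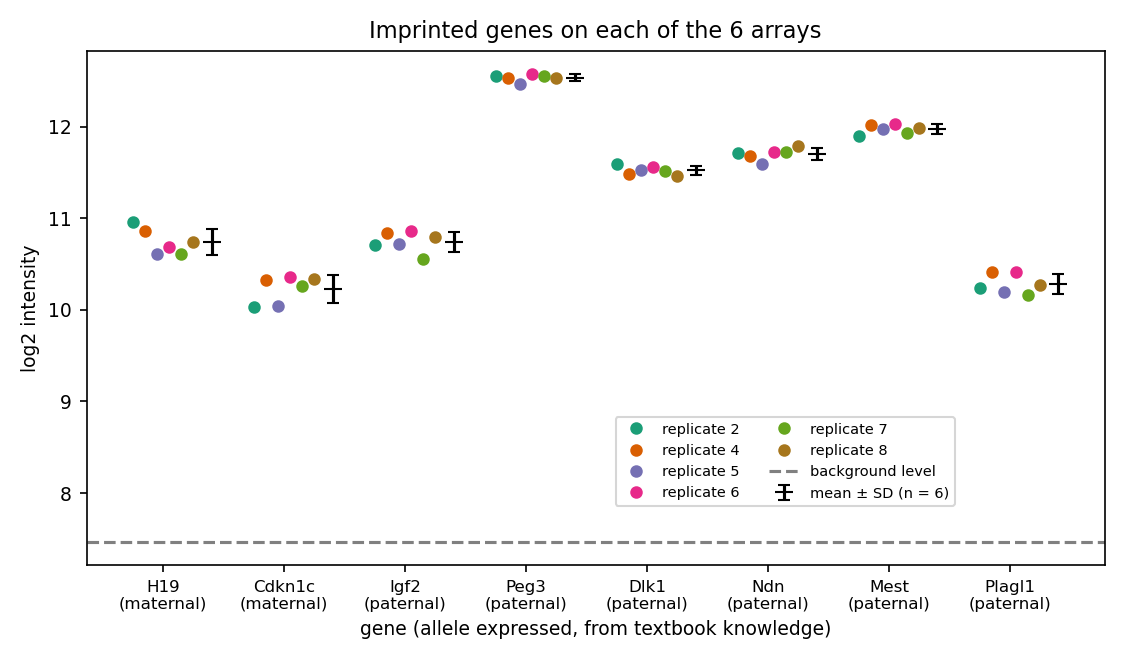
Log2 intensity of the 8 imprinted genes (y axis, log2 scale) on each of the 6 arrays, 1 coloured point per array, with the mean and SD (n = 6) to the right of each set of points and the background level as a dashed line. All points lie far above the background of 7.47, and the points of H19, Cdkn1c, Igf2 and Plagl1 are spread more widely than those of Peg3, Dlk1, Mest and Ndn.

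H19, the maternally expressed long non-coding RNA that shares its enhancers with Igf2, had a log2 intensity of 10.74 ± 0.14 (SD, n = 6). Its lowest value was 10.60, its median 10.72 and its highest 10.96, a range of 1.28-fold. The level stood highest in replicates 2 and 4, at 10.96 and 10.86, and lowest in replicates 5 and 7, at 10.60 and 10.61. Against genes of like level, the SD was large: it exceeded the SD of 94.4% of genes in the same bin of level, of 10 bins, where the median SD was 0.059.

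Cdkn1c, which encodes the cyclin-dependent kinase inhibitor p57 that holds cells back from division, was the other maternal gene in the table and had a log2 intensity of 10.23 ± 0.15 (SD, n = 6). The lowest value was 10.03, the median 10.30 and the highest 10.36, a range of 1.26-fold. The arrays fell into a low pair, replicates 2 and 5 at 10.03 and 10.05, and 4 arrays between 10.26 and 10.36. Its SD exceeded that of 95.2% of genes of like level. The pattern differed from that of H19, which was at its highest in replicate 2, where Cdkn1c was at its lowest.

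Igf2, the paternally expressed insulin-like growth factor that drives fetal growth, had a log2 intensity of 10.74 ± 0.11 (SD, n = 6). Its lowest value was 10.55, its median 10.76 and its highest 10.86, a range of 1.23-fold. Replicate 6 was the highest and replicates 4 and 8 came next, at 10.84 and 10.80, whereas replicate 7 stood lowest. The SD exceeded that of 89.4% of genes of like level. The means of Igf2 and H19 differed by far less than either SD.

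Plagl1, a zinc finger transcription factor that regulates other imprinted genes, had a log2 intensity of 10.28 ± 0.11 (SD, n = 6). Its lowest value was 10.16, in replicate 7, its median 10.26 and its highest 10.41, reached in both replicates 4 and 6. These 2 arrays stood apart from the other 4, none of which passed 10.27. The SD exceeded that of 88.0% of genes of like level.

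Mest, a membrane protein of the hydrolase fold family, was brighter and steadier, with a log2 intensity of 11.97 ± 0.05 (SD, n = 6). The lowest value was 11.90, in replicate 2, the median 11.98 and the highest 12.03, in replicate 6, a range of 1.10-fold. As for Igf2 and Plagl1, replicates 4 and 6 were its highest arrays. Its SD was near the middle for its level, above 44.8% of genes.

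Peg3, a large zinc finger protein of embryo and brain, gave the brightest signal of the 8 genes and the smallest SD, with a log2 intensity of 12.54 ± 0.039 (SD, n = 6). The lowest value was 12.46, the median 12.54 and the highest 12.57, a range of 1.08-fold. The other 5 arrays lay at 12.53 or above, so replicate 5 stood alone, and without it the SD was 0.018. Its SD exceeded that of 24.3% of genes of like level.

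Ndn encodes necdin, a protein of post-mitotic neurons, and had a log2 intensity of 11.70 ± 0.067 (SD, n = 6), with a lowest value of 11.59, a median of 11.72 and a highest of 11.79. Replicate 5 was again the lowest array, and replicate 8 was the highest. Dlk1, a transmembrane relative of the Notch ligands, had a log2 intensity of 11.52 ± 0.050 (SD, n = 6), with a lowest value of 11.46, a median of 11.52 and a highest of 11.59. For Dlk1, replicate 2 was the highest array, and replicate 8, the highest for Ndn, was the lowest. Ndn and Dlk1 had SDs above those of 63.3% and 42.1% of genes of like level.

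In order of intensity the genes ran Peg3, Mest, Ndn, Dlk1, Igf2, H19, Plagl1 and Cdkn1c. The 6 values of Peg3 did not overlap with those of Mest, nor those of Mest with those of Ndn. Ndn and Dlk1 overlapped slightly, since Dlk1 in replicate 2 was brighter than Ndn in replicate 5. Dlk1 was clear of Igf2, whereas the values of Igf2 and H19 overlapped, as did those of Plagl1 and Cdkn1c.

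The median SD of the 2 maternal genes was 0.145 and that of the 6 paternal genes was 0.060, beside 0.076 over all genes above background. The difference between the 2 classes was not tested, because genes are not replicates and only 2 maternal genes were in the table. The paternal class was itself split, with Igf2 and Plagl1 near 0.11 and the other 4 at or below 0.067. The brighter paternal genes were the steadier ones, and over all genes on the arrays the SD was smaller at higher levels, so each SD was read against genes of like level. No imprinted gene had an SD over 0.2, which 4.16% of genes above background did. Among 8 genes a share of that size would give less than 1 gene.

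**Figure D2:**
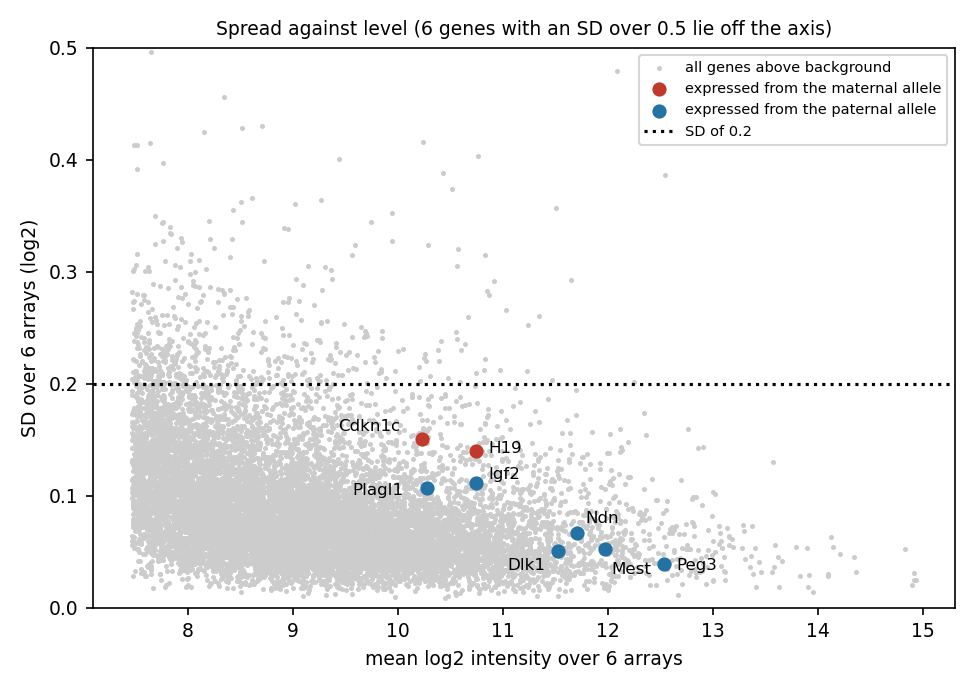
SD over the 6 arrays (y axis, log2) against mean log2 intensity (x axis) for all genes above background (grey), with 6 genes off the upper end of the axis, and for the maternal (red) and paternal (blue) imprinted genes. Cdkn1c, H19, Igf2 and Plagl1 sit towards the upper edge of the cloud at their level, Peg3, Dlk1, Mest and Ndn within its body, and all lie under the dotted line at an SD of 0.2.

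The arrays at the extremes were shared between genes. The top value of 5 genes was in replicate 6, namely of Cdkn1c, Igf2, Peg3, Mest and Plagl1, and the lowest value of none was there. Replicate 5 was the lowest for 3, H19, Peg3 and Ndn, and the highest for none. Replicate 4 was at neither end for any gene. Replicate 8, which had the lowest agreement with the other arrays, was the highest for Ndn and the lowest for Dlk1.

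**Figure D3:**
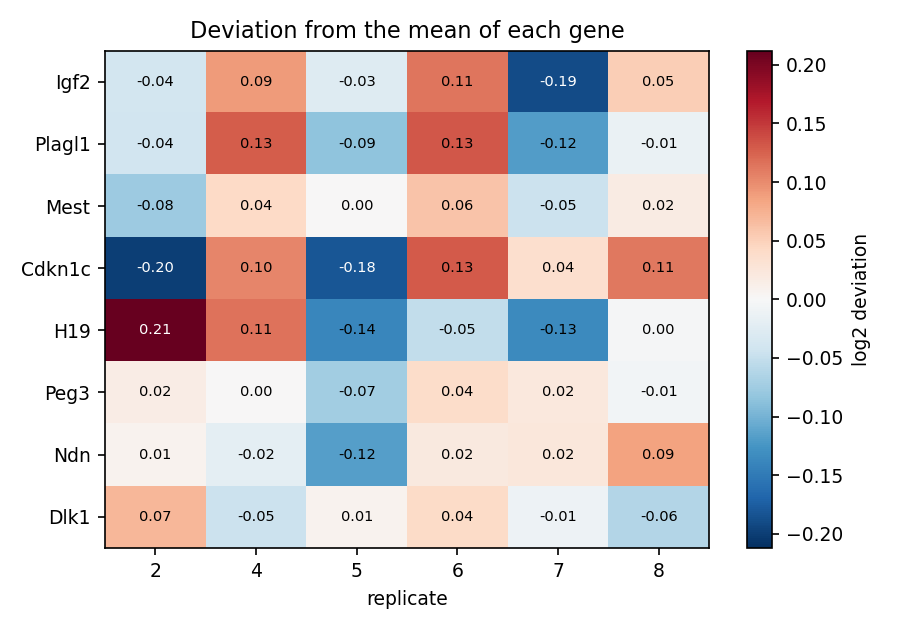
Deviation of each of the 8 imprinted genes (rows) from its own mean over the 6 arrays, for each replicate (columns), on the log2 scale, with red above and blue below the mean. Igf2, Plagl1 and Mest are above their means in replicates 4 and 6 and below in replicates 2 and 7, while H19 is highest (0.21) and Cdkn1c lowest (-0.20) in replicate 2.

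Covariation was taken as Pearson's r over the 6 arrays, for 28 pairs of genes, with two-sided exact permutation tests over the 720 pairings of the arrays. P-values were adjusted over all 102308 relations between an imprinted gene and any gene above background, and every adjusted p was 1. The smallest exact permutation p was 0.00139, the least that 720 pairings allow. Over so many relations no pair could pass on its own, so the adjusted p does not tell close pairs from loose ones. Of all these relations, 4.09% had an unadjusted exact p under 0.05, as did 2 of the 28 pairs by Pearson's r. No pair reached an r of 0.9, which 1.7% of all pairs of genes above background reached, and no pair fell to -0.9, which 1.38% did. Over the 81824028 pairs of genes above background the median r was 0, with quartiles at -0.41 and 0.41. These pairs share the 6 arrays, and 6 arrays leave each r imprecise.

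Among the 15 pairs of paternal genes, the median r was 0.087 and ran from -0.40 to 0.88, with 10 pairs positive and 4 at 0.7 or more. Among the 12 pairs of a maternal with a paternal gene, it was 0.34 and ran from -0.58 to 0.70, with 10 pairs positive. The single maternal pair, H19 with Cdkn1c, had an r of -0.16 (exact permutation p = 0.772, rho = -0.086, p = 0.919, n = 6). That value turned with a single array: it was 0.62 without replicate 2 and -0.63 without replicate 5. Genes that share a parental origin thus had no higher median r than genes that do not, and no test of that difference was made.

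The highest r among the imprinted genes joined 3 paternal genes that lie on different chromosomes, Igf2 on 7, Plagl1 on 10 and Mest on 6. Igf2 and Plagl1 had an r of 0.88 (exact permutation p = 0.00694, adjusted p = 1, n = 6) and a rho of 0.94 (exact permutation p = 0.0167). With replicates 6 and 7 left out, which lay farthest from the median of Igf2, r was 0.87, and with each array left out in turn it stayed between 0.84 and 0.92. Of all pairs of genes above background, 2.32% had an r at least as high.

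Mest ran with both. Its r with Igf2 was 0.80 (exact permutation p = 0.0458, adjusted p = 1, n = 6), its rho 0.94 (exact permutation p = 0.0167), and r was 0.83 without replicates 6 and 7 and 0.72 to 0.98 with single arrays left out. Its r with Plagl1 was 0.77 (exact permutation p = 0.0764, adjusted p = 1, n = 6), its rho 0.83 (exact permutation p = 0.0583), and r was 0.96 without replicates 2 and 7. On the arrays this is the shared rise in replicates 4 and 6 and the shared low values in replicates 2 and 7. Since an r at least as high as these 2 was found in 5.36% and 6.37% of all pairs, such values are common on these arrays.

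Some other pairs moved more with single arrays left out. Peg3 and Ndn had an r of 0.72 (exact permutation p = 0.151, adjusted p = 1, rho = 0.37, exact p = 0.497, n = 6), which was 0.99 without replicate 8 and turned to -0.29 without replicate 5, the array in which both were lowest. Without replicates 5 and 6, the farthest from the median of Peg3, r was -0.41. The highest r across the classes was that of Cdkn1c with Mest, 0.70 (exact permutation p = 0.117, adjusted p = 1, n = 6), with a rho of 0.89 (exact permutation p = 0.0333). It was 0.95 without replicates 2 and 5 and lay between 0.44 and 0.87 with single arrays left out.

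Dlk1 gave the lowest values in both classes. With Mest its r was -0.40 (exact permutation p = 0.414, adjusted p = 1, rho = -0.31, exact p = 0.564, n = 6), and this turned to 0.16 without replicate 2 and to 0.24 without replicates 2 and 8. With Cdkn1c its r was -0.58 (exact permutation p = 0.204, adjusted p = 1, rho = -0.43, exact p = 0.419, n = 6). This value stayed negative with any single array left out, between -0.90 and -0.25, and was 0.14 without replicates 2 and 5.

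**Figure D4:**
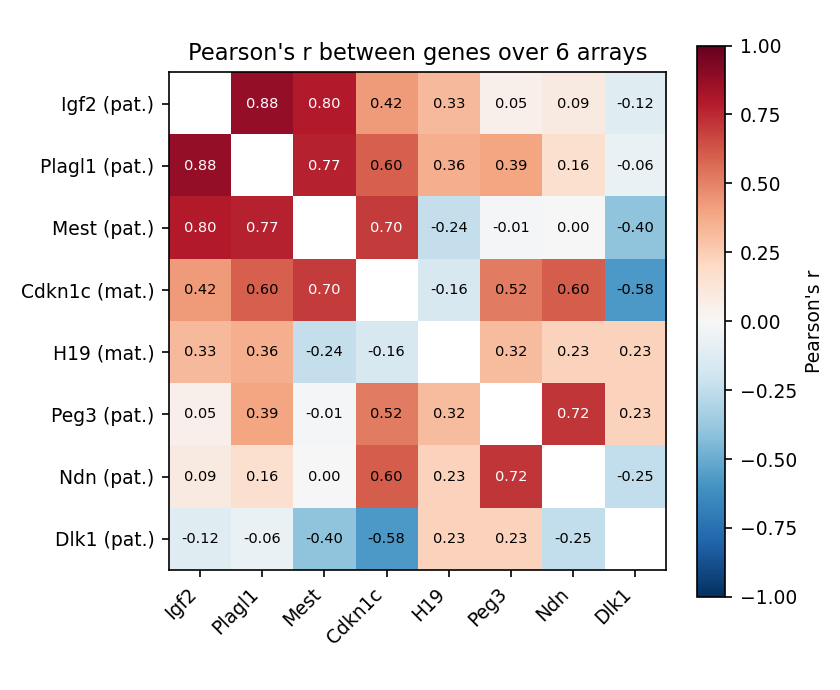
Pearson's r over the 6 arrays between each pair of the 8 imprinted genes, with the expressed allele (mat. or pat.) in the row labels and colour from -1 (blue) to 1 (red). The dark red corner joins Igf2, Plagl1 and Mest (0.77 to 0.88), Peg3 and Ndn form a second red cell (0.72), and Dlk1 with Cdkn1c is the bluest cell (-0.58).

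H19 and Igf2, the classic pair of oppositely imprinted neighbours, are governed by a single imprinted region between them and by enhancers they share. Their r was 0.33 (exact permutation p = 0.531, adjusted p = 1, rho = 0.14, exact p = 0.803, n = 6). It ran from -0.14 without replicate 7 to 0.69 without replicate 2, and was 0.73 without replicates 2 and 4, the farthest from the median of H19, but 0.080 without replicates 6 and 7, the farthest from that of Igf2. In replicates 2 and 6 the genes parted, with H19 above and Igf2 below its mean in the first and the reverse in the second. Both were above their means in replicate 4 and below in replicate 7.

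Other neighbours in the clusters were set beside the listed genes, as pairs chosen with their values known. The highest of them was Ndn with Snrpn, a splicing protein gene of the Prader-Willi cluster that is also paternal, with an r of 0.79 (exact permutation p = 0.0292, adjusted p = 1, n = 6) and a rho of 0.94 (exact permutation p = 0.0167). It was 0.71 without replicates 5 and 8, and 0.65 to 0.86 with single arrays left out. With the other genes of that cluster Ndn had r of 0.15 for Magel2, 0.024 for Mkrn3, -0.41 for Peg12 and 0.42 for Ube3a. Dlk1 and Meg3, the maternal non-coding RNA of the same cluster, had an r of -0.52 (exact permutation p = 0.308, adjusted p = 1, rho = -0.49, exact p = 0.356, n = 6). That value rested on replicate 8, in which Dlk1 was lowest and Meg3 highest, and was 0.012 without it.

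In the other clusters, Peg3 and its maternal neighbour Zim1 had an r of 0.49 (exact permutation p = 0.361, rho = 0.26, exact p = 0.658, n = 6), which was -0.013 without replicate 5 and -0.20 without replicates 5 and 6. Mest and Copg2, whose annotated spans overlap, had an r of 0.51 (exact permutation p = 0.306, rho = 0.60, exact p = 0.242, n = 6), with 0.80 without replicates 2 and 7 and 0.22 without replicate 6. Igf2 and Igf2r, the maternal receptor that clears IGF2 from the cell surface, had an r of 0.64 (exact permutation p = 0.183, rho = 0.43, exact p = 0.419, n = 6), with 0.47 without replicates 6 and 7 and 0.29 without replicate 7. The remaining pairs had r of 0.13 for Peg3 with Usp29, -0.35 for Mest with Klf14, 0.13 for Cdkn1c with Phlda2 and -0.21 for Cdkn1c with Slc22a18. The adjusted p of each of these was 1. Igf2 also overlaps Igf2os, Plagl1 overlaps Hymai and Ndn overlaps a predicted gene in the annotation, and signal was not separated between such pairs here.

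In the clusters around the imprinted genes, counts above background are read beside the 65.2% of all genes that passed it. In distal chromosome 7, 8 of 12 genes were above background, a share near that of all genes. Cd81, a tetraspanin of the cell surface, gave the brightest signal there, 12.20 ± 0.051 (SD, n = 6), and Ins2, the insulin gene next to Igf2, was below background at 6.80 ± 0.25 (SD, n = 6). Kcnq1, the potassium channel gene beside Cdkn1c, was below it as well, at 7.20 ± 0.10 (SD, n = 6). Igf2 and Cdkn1c were thus above background beside Ins2 and Kcnq1, which were not. Other neighbours were above it, H19 at 10.74 for Igf2, and Phlda2 at 8.25 and Slc22a18 at 7.90 for Cdkn1c.

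All 6 genes of the Prader-Willi cluster were above background, from Peg12 at 8.83 ± 0.12 to Snrpn at 11.85 ± 0.064 and Ndn at 11.70 ± 0.067 (SD, n = 6). Around Dlk1, 2 of 4 were: Dlk1 and Meg3, at 11.87 ± 0.079, while Rtl1 and Dio3 were below background at 7.21 ± 0.066 and 6.43 ± 0.13 (SD, n = 6). In the Peg3 cluster, Zim1 stood at 10.62 ± 0.14 and Usp29 at 8.01 ± 0.083 (SD, n = 6). Peg10 has no row, but 5 of 7 genes of its cluster were above background, again a share near that of all genes, led by Sgce at 10.92 ± 0.054 (SD, n = 6).

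**Figure D5:**
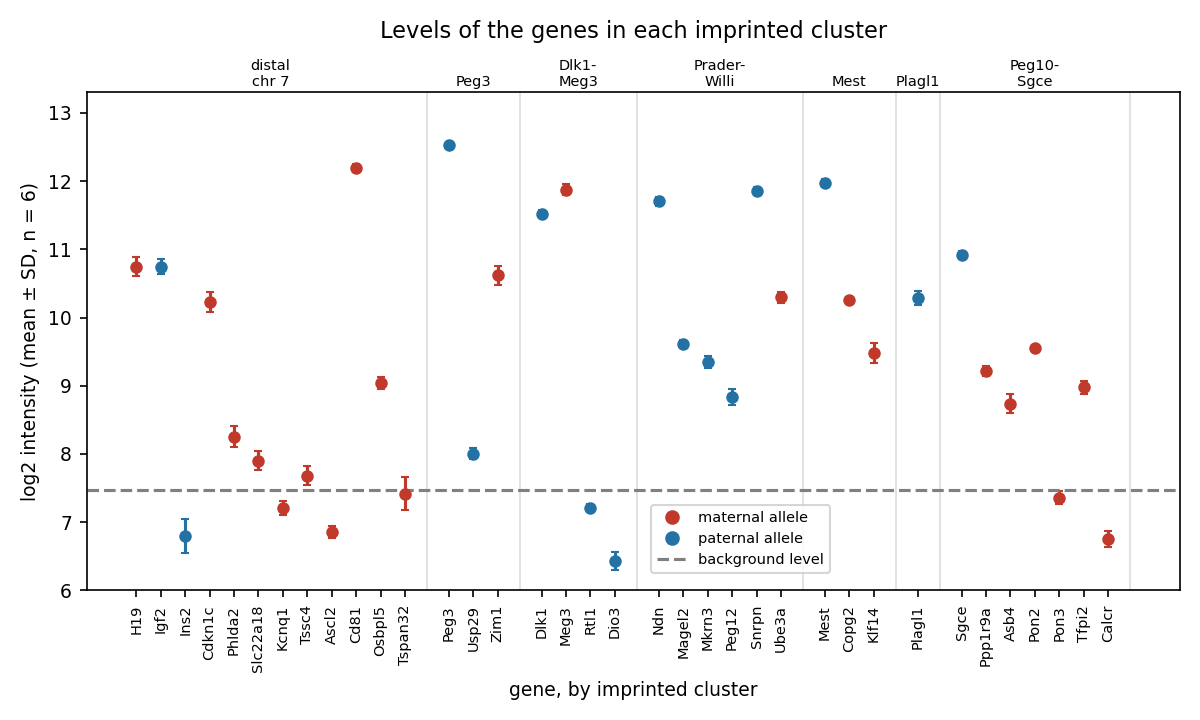
Mean log2 intensity with SD (n = 6, y axis) of the genes of 7 imprinted clusters (x axis), red for the maternal and blue for the paternal allele by textbook assignment, which for some genes holds in certain tissues alone; the dashed line is the background level of 7.47. Listed genes such as Peg3, Ndn and Dlk1 lie near the top of their clusters, while Ins2, Rtl1, Dio3 and Calcr lie under the line.

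Further imprinted genes were set beside the listed ones. From a list of 47 further imprinted genes, 40 were in the table and 31 were above background, 16 of 21 maternal and 15 of 19 paternal, beside 65.2% of all genes. The median SD of the 31 was 0.079, and none passed 0.2. The brightest were Nnat, the paternal neuronatin gene of developing brain, at 12.90 ± 0.092 (SD, n = 6), and Cd81, Meg3 and Snrpn, given above. H13, Sgce, Zdbf2, Zim1 and Ube3a followed, at 11.26, 10.92, 10.75, 10.62 and 10.29 in log2 intensity, and Impact lay between 9.94 and 10.11 over the arrays. The widest maternal genes were Phlda2, Klf14, Asb4, Tssc4 and Zim1, with SDs of 0.15, 0.15, 0.14, 0.14 and 0.14. The widest paternal genes were Mcts2, Peg12, Zrsr1, Nnat and Mkrn3, with SDs of 0.14, 0.12, 0.10, 0.092 and 0.085. H19 and Cdkn1c thus lay among the wider imprinted genes, although these lists are of unequal level.

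Of 12 genes that set or keep imprints, 10 were above background, beside 65.2% of all genes. Zfp57, the zinc finger protein that reads the methylated hexamer, stood at 11.47 ± 0.073, and its partner Trim28 at 11.20 ± 0.050 (SD, n = 6). Dnmt1, which copies methylation at replication, had a level of 10.20 ± 0.063, and the histone methyltransferase gene Setdb1 and the insulator protein gene Ctcf had levels of 10.08 ± 0.040 and 9.83 ± 0.057 (SD, n = 6). The widest were Zfp445, Dnmt3l, Zfp57, Smchd1 and Dnmt1, with SDs of 0.095, 0.095, 0.073, 0.069 and 0.063. This order does not allow for level. Dnmt3l, at 7.57, was close to background, and its SD exceeded that of only 29.1% of genes of like level. Dppa3 and Dnmt3b were below background, at 5.33 and 7.42.

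Of 13 listed genes of the IGF pathway, through which IGF2 acts, 12 were in the table, and these 12 were above background, beside 65.2% of all genes. Irs2 had no matched row and was not analysed here. Igfbp5 and Igfbp2, which bind the factor outside the cell, stood at 12.61 ± 0.029 and 12.07 ± 0.10, and Igf1r, the receptor that signals for it, at 11.56 ± 0.048 (SD, n = 6). The RNA-binding protein genes Igf2bp1 and Igf2bp2 followed at 10.74 and 10.48. Igf1, the related factor, was the dimmest and had the largest SD, at 7.84 ± 0.16 (SD, n = 6). Igfbp2, Insr, Irs1 and Igfbp3 came next in spread, with SDs of 0.10, 0.093, 0.068 and 0.068. Level is not allowed for in this order. The SD of Igf1 exceeded that of 80.5% of genes of like level, and the SD of Igfbp2 that of 85.9%.

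Cell content was set beside the imprinted genes through marker means per array, with exact permutation tests of r for every gene above background. The study corrected for variation between neuron batches with 4 motor neuron genes, Isl1, Lhx3, Mnx1 and Olig2, whose mean was 9.11 ± 0.075 (SD, n = 6), with its highest value in replicate 5. Of the 8 imprinted genes, 1 had an unadjusted p under 0.05 with it, beside 4.71% of all genes, and it was Peg3 (r = -0.79, exact permutation p = 0.0486, adjusted p = 0.9995, rho = -0.66, exact p = 0.175, n = 6). Without replicate 8, r was -0.83, and without replicates 5 and 8 it was 0.45. With replicate 8 out, the sign thus rested on replicate 5, where the motor neuron mean was highest and Peg3 lowest.

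The mean of the 5 mesoderm markers above background was 8.30 ± 0.14 and that of the 4 endoderm markers 8.19 ± 0.13 (SD, n = 6), both lowest in replicate 8. With the mesoderm mean, 0 of 8 imprinted genes had an unadjusted p under 0.05, beside 19.3% of all genes, and with the endoderm mean 0 of 8, beside 22.1%. The range over arrays was 8.13 to 8.46 for the mesoderm and 7.94 to 8.29 for the endoderm mean. H19, which is also used in mesoderm and endoderm, had an r of -0.63 with the first (exact permutation p = 0.201, rho = -0.54, exact p = 0.297, n = 6) and -0.29 with the second (exact permutation p = 0.618, rho = -0.60, exact p = 0.242, n = 6). Without replicate 8 these were -0.82 and -0.86, and with replicates 6 and 8 left out for the first and 4 and 8 for the second they were -0.89 and -0.94, so replicate 8 decided the size of the second. Igf2 had r of -0.34 and -0.36 with them (exact permutation p = 0.533 and 0.453, n = 6). Of the markers that define these cells, T, Col1a1, Col1a2, Col3a1 and Acta2 of mesoderm and Gata4, Gata6, Apoa1 and Hnf4a of endoderm were above background, whereas Mesp1 and Foxf1 of mesoderm and Sox17 and Afp of endoderm were below it.

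The mean of the 8 proliferation genes was 10.59 ± 0.030 (SD, n = 6). H19 was the 1 imprinted gene with an unadjusted p under 0.05, beside 3.79% of all genes, with an r of -0.93 (exact permutation p = 0.0111, adjusted p = 1, rho = -0.71, exact p = 0.136, n = 6). It was -0.96 without replicate 8 and -0.50 without replicates 2 and 4, in which H19 was highest and the proliferation mean lowest. Cdkn1c, the inhibitor of division, had an r of 0.36 with the same mean (exact permutation p = 0.50, rho = 0.26, exact p = 0.658, n = 6). For each of the 4 marker means, no gene, imprinted or not, had an adjusted p under 0.05, and the part of cell content in the spread of the imprinted genes was not tested further.

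The genes most like H19 and Cdkn1c, the 2 imprinted genes whose SD exceeded that of 90% of genes of like level, were sought among all genes above background by r over the 6 arrays. For H19 they were Mios, with an r of 0.994, and Wdr37, with an r of 0.992, both of which ordered the arrays exactly as H19 did (rho = 1), and 139 genes reached an r of 0.9. For Cdkn1c they were Trim28, with an r of 0.993 and a rho of 0.71, and Prkrip1, with an r of 0.989 and a rho of 0.77, and 116 genes reached 0.9. These were the highest values among the 12793 genes above background, and the adjusted p of each was 1. An r of 0.9 was reached by 1.7% of all pairs of genes above background. Both counts, 139 and 116, were below that share of the 12793 genes. Trim28 had an SD of 0.050 against 0.15 for Cdkn1c, so the likeness was in pattern and not in size.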

How the data were processed

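Total RNA of the 6 samples was hybridised to Affymetrix mouse exon arrays. The authors deposited linear intensities, with a single value for each gene on each array. According to the methods, these were made by Robust Multi-array Averaging (RMA) in the Aroma Affymetrix package, as the mean over the exons of a gene. The submitters' processing notes name Affymetrix Expression Console and RMA. The genome build, and which arrays were normalized together, are not given in the sources used here. The study's correction for variation between neuron batches was not applied here.

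Arrays were mapped through their titles, and the table held 0 columns of other samples. Intensities were put on the log2 scale with no pseudocount. A gene was above background when its mean passed the 95th percentile of the olfactory receptor genes. SDs were ranked within 10 bins of mean level over genes above background. Pearson's r and Spearman's rho over the arrays had two-sided exact permutation tests over 720 pairings. Benjamini-Hochberg adjustment was made together over all relations of the listed genes with genes above background. For each marker mean it was made separately, over the genes above background other than its own markers. Python 3.11.15, numpy 2.4.6, pandas 2.3.3 and scipy 1.17.1 were used. The computation was tested on simulated data. Arrays give no depth, so their number limits the precision, and no batch is labelled.

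The listed genes and all other lists were chosen with earlier results of these data known. Named were all listed genes, pairs with r of 0.9 or more or -0.9 or less, the highest and lowest r of each class of pairs, the 5 brightest and 5 widest genes above background of each further list, and the 2 genes most like each listed gene whose SD exceeded that of 90% of its bin. Other pairs, neighbours and marker relations were named with their values seen. A pseudocount of 32, median centring, quantile normalization, the 99th percentile as background, no filter, rank correlation and left-out arrays were tried as alternatives.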

Additional observations from a re-analysis of the deposited data

How the results depend on the processing

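Of 242 levels, SDs and correlations recomputed under settings that can move them, 240 moved by less than their SD or jackknife error over arrays. With a single array left out, this outcome was nearly fixed in advance. The jackknife error is built from those same values, and leaving out 1 of 6 arrays can hardly move a mean by its SD. Counts of imprinted genes related to a marker mean at an adjusted p under 0.05 were 0 throughout, which 6 arrays could hardly change. All 8 imprinted genes stayed above background, and none passed an SD of 0.2, under each setting and with each array left out. Median centring of the arrays raised the median SD of the paternal genes from 0.060 to 0.073, while with single arrays left out it ran from 0.057 to 0.064 and that of the maternal genes from 0.117 to 0.157. The number of pairs with an r of 0.9 or more, 0 as reported, was 1 under median centring and 2 with Spearman's rho. It ran from 0 to 2 with single arrays left out, with 2 pairs without replicate 2, 7 or 8 and 1 without replicate 5. The median r of the paternal pairs, 0.087, was 0.32 under median centring and ran from -0.028 to 0.30 with single arrays left out, and that of the mixed pairs from 0.23 to 0.54. The r of H19 with Cdkn1c ran from -0.63 to 0.62, so its sign is not settled. The SD of Peg3 fell to 0.018 without replicate 5. The causes were not tested. No paired analysis was possible because all arrays belong to 1 group.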
